A study of Mus musculus with 24 samples.

Results

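Transcription factors of the cortical excitatory lineage and of cortical layers were examined by the H3K4me3 counts at their promoters. The genes were Neurod1, Neurod2, Neurod6, Emx1, Tbr1, Cux1, Cux2, Fezf2 and Bcl11b, and every region of the deposited list that overlapped an annotated transcription start site (TSS) of one of them in GENCODE M1 on mm9 was taken, region by region and whatever its counts. This gave 9 regions of 8 genes, out of 17993 regions in all, of which 13404 overlapped a TSS. Cux2 had 2 regions. No region of the list overlapped a TSS of Tbr1 (chromosome 2, 61640987 to 61652171), and its promoter was not analysed here.

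H3K4me3, the trimethylation of lysine on histone H3 that lies at active promoters, was measured in adult cerebral cortex of C57BL/6 mice in 4 groups of 3 libraries, each library from a lysate of 2 animals. Rosa H2B-FLAG mice (genotype Rosa CAG-H2B-FLAG) had recombined the reporter through Vasa-Cre and carried the FLAG-tagged histone H2B, a human H2BJ, in nearly all cells and throughout life, and no age is given for them in the sources used here. Camk2a H2B-FLAG mice (Rosa26 CAG-floxed-pA-H2B-FLAG/ CaMKCreERT2) expressed it in Camk2a-positive neurons after 1 mg tamoxifen a day for 5 days, given to males from 8 weeks of age, and were killed a month later. A longer form of the tagged histone, presumably started at an upstream codon, was also made. Tamoxifen, CreERT2 and the timing of expression therefore differed between the lines together with the cells tagged, and these cannot be told apart. Single ChIP-Seq used the anti-H3K4me3 antibody alone and samples chromatin of all cells of the tissue, whereas tChIP-Seq precipitated with anti-FLAG and then with anti-H3K4me3. In any such lysate, fewer cells of a type and less mark per cell cannot be told apart. The p-values below measure the spread between these libraries.

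The total count per library was 6316125 to 8644574 in Rosa single ChIP, 4063200 to 4233144 in Camk2a single ChIP, 1457261 to 1828371 in Rosa tChIP and 2709729 to 3049130 in Camk2a tChIP, so the Rosa tChIP values are the least precise. The tissue label was compared with promoter regions of marker genes. The excitatory markers Slc17a7, Camk2a, Nrgn and Slc17a6 were called higher in Camk2a than in Rosa tChIP, with log2 fold changes of 1.65, 2.27, 1.35 and 1.15. Camk2a had 70.05 CPM on average in Rosa tChIP and 339.3 CPM in Camk2a tChIP, and Slc17a7 had 39.83 and 125.1 CPM (n = 3 each). In single ChIP Camk2a also differed, with 174.0 CPM in the Rosa line and 249.8 CPM in the Camk2a line, which carries the CaMKCreERT2 transgene, whereas Slc17a7 had 99.21 and 97.47 CPM. The part of the transgene in the Camk2a value was not tested. Of the markers that had a region, 3 of 4 inhibitory, 4 of 4 astrocyte and 4 of 4 endothelial ones were called lower, as was Zic1, the 1 marker of 4 for cerebellar granule neurons with a region. Of 4 oligodendrocyte markers 3 were called lower and Mbp was called higher, and no microglial marker of 5 had a region. From Rosa to Camk2a tChIP the summed inhibitory level went from 171.1 to 188.5 CPM down to 102.5 to 112.9 CPM, the astrocyte level from 167.5 to 207.3 CPM down to 55.21 to 59.30 CPM, and the endothelial level from 171.7 to 177.1 CPM down to 33.20 to 43.83 CPM. The part of these cell types in the values of the factors below was not tested.

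During development the cortical excitatory lineage is specified by homeodomain and basic helix-loop-helix factors, and later factors divide its neurons into layers with different projections. Neurod1, Neurod2 and Neurod6 are basic helix-loop-helix factors that drive and maintain differentiation of excitatory neurons, and bind E-box motifs. Emx1 marks dorsal telencephalic progenitors and the excitatory neurons they produce. Fezf2 and Bcl11b (Ctip2) specify deep-layer neurons that project below the cortex, Bcl11b also being made in striatal neurons and in some interneurons. Cux1 and Cux2 are homeodomain factors used as markers of upper layers, and Cux1 is also expressed in many other tissues.

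The regions were wide. They spanned 2682 to 6396 bp, against a median of 1774 bp over all regions. Those of Neurod6 (chromosome 6, 55626609 to 55632876) and Fezf2 (chromosome 14, 13173384 to 13179779) covered 100% of their genes, and those of Neurod2 (chromosome 11, 98186921 to 98191659) and Neurod1 (chromosome 2, 79293646 to 79297198) covered 95.47% and 77.12%. In these small genes the regions thus spanned coding exons as well as the promoter, and where the reads lay within a region was not examined. The Neurod1 region also held TSSs of Cerkl and Gm17325. The Emx1 region (chromosome 6, 85136655 to 85141923) covered 26.38% of the gene, and that of Bcl11b (chromosome 12, 109238029 to 109242622) covered 4.06%. The Cux1 region (chromosome 5, 137040096 to 137045193) held 4 of the gene's 5 annotated TSSs. The upstream Cux2 region (chromosome 5, 122496572 to 122501049) lay at the 5′ end of the gene and also held a TSS of Gm15637, and the internal one (chromosome 5, 122450137 to 122452818) lay at a TSS 47758 bp further down, where 95.75% of its bases were intron and 114 bp were noncoding exon.

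**Figure D1:**
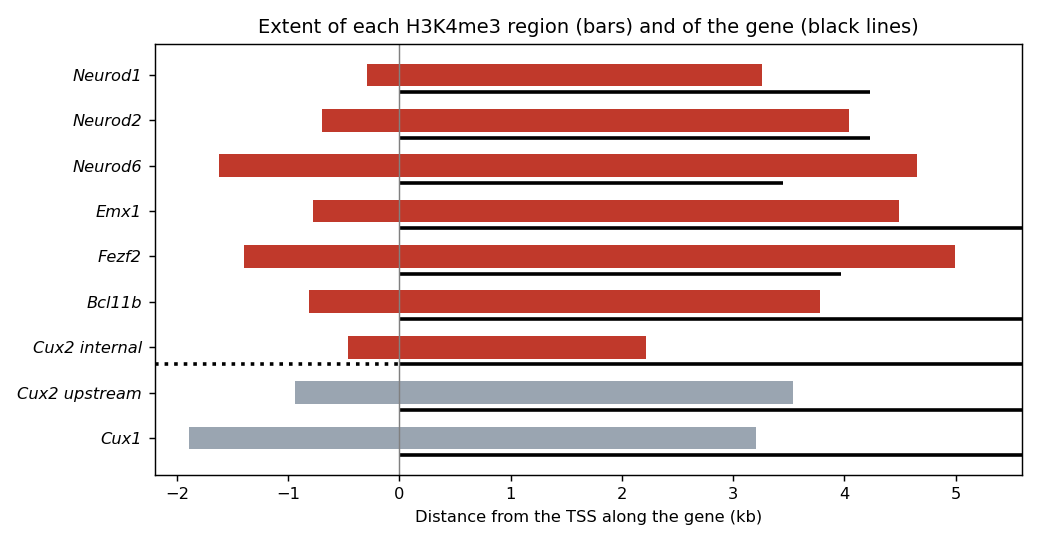
Extent of the 9 H3K4me3 regions along the gene, in kb from the TSS, which stands at 0. Red bars are the regions called higher in Camk2a than in Rosa tChIP and grey bars are those not called. Black lines show the gene, cut at the edge of the plot, and the dotted line is the part of Cux2 upstream of the internal TSS. The bars of Neurod6 and Fezf2 run past both ends of the gene.

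The promoters of these regions differed in sequence. The 250 bases upstream of the most 5′ TSS in the region are printed for 5 of them, read from mm9, 5′ to 3′ on the minus strand, the strand of these genes, with every CG dinucleotide in capitals. Cux1 and the upstream Cux2 promoter are shown because their counts were not called different between the lines, and internal Cux2, Neurod6 and Neurod2 because theirs were.
Cux1 chr5:137043302-137043551: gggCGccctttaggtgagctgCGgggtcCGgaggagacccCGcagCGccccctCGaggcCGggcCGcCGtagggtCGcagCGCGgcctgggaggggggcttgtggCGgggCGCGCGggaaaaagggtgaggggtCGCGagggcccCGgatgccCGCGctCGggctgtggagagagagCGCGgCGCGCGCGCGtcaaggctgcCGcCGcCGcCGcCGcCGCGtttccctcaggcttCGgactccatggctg
Cux2 upstream chr5:122500112-122500361: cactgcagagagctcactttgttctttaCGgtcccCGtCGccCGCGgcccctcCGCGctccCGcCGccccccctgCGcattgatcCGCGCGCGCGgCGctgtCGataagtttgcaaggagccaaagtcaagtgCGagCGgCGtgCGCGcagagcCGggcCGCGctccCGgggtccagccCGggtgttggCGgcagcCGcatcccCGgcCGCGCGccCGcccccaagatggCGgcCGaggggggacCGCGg
Cux2 internal chr5:122452354-122452603: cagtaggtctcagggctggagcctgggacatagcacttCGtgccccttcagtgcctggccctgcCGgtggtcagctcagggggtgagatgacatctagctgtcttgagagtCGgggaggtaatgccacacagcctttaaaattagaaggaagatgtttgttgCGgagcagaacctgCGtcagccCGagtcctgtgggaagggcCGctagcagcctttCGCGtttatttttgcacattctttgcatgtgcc
Neurod6 chr6:55631258-55631507: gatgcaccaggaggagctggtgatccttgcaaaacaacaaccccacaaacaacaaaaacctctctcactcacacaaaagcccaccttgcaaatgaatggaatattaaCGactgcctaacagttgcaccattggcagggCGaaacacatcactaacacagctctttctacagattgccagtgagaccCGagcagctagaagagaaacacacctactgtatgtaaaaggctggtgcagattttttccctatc
Neurod2 chr11:98190963-98191212: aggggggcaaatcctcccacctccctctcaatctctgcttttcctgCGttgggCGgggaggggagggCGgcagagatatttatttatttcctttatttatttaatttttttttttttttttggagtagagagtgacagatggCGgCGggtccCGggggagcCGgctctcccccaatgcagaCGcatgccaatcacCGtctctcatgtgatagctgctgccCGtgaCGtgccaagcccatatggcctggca
None of these 5 windows overlapped an annotated exon. Cux1 held 37 CG and upstream Cux2 38 CG in the 250 bases, whereas internal Cux2 held 9, Neurod6 3 and Neurod2 11. The 4 promoters not printed held 14 (Neurod1), 8 (Emx1), 14 (Fezf2) and 9 (Bcl11b).

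Cux1 and upstream Cux2, the promoters with the most CG among these 9 regions, were thus the ones not called. In windows of 300 bases (250 before to 50 after the TSS), the 7 called promoters held 3 to 21 CG, and Cux1 and upstream Cux2 held 48 and 43. The median of 22354 protein-coding promoters was 12 CG, with quartiles of 3 and 23. Of the called promoters only Neurod6, with 3, lay below that median, so the others were not poor in CG. Of 6247 protein-coding promoters in regions with 3 to 21 CG, 17.66% were called higher in Camk2a tChIP, and of 671 with 43 or more CG, 21.16% were. Among those in regions over 4 kb the order was the other way, 54.69% of 437 promoters against 45.87% of 109. These shares were not tested against each other. Over the whole region, Cux1 was the densest of the 9 with 6.964 CG per 100 bp, followed by Neurod2 with 6.204 and upstream Cux2 with 5.382, and the other called regions held 1.532 to 4.916. The E-box CANNTG, which reads the same on both strands, was in 6 of the 9 windows, against 69.37% of 22354 protein-coding promoters of this length. Neurod1 and Neurod2 each held 3 matches, Neurod6 and Emx1 held 2, and both Cux2 promoters held 1. The form CAGATG, searched on both strands and itself a CANNTG match, was in Neurod1 and Neurod2 and in 14.98% of all promoters. A match is a description of these letters and not a bound site.

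The comparison of the Camk2a with the Rosa line in tChIP asks which promoters carry more of the mark in the chromatin of Camk2a-positive neurons than in that of all cells. Of the 9 regions 7 were higher in Camk2a tChIP, none was lower, and Cux1 and the upstream promoter of Cux2 were not called. Over the whole list, 17.0% of regions were called higher. Most of the 9 member regions were wide, and of the 1096 TSS regions over 4 kb, 51.0% were called higher and 14.87% lower. Neurod1 (3553 bp) and internal Cux2 (2682 bp), both called higher, are below 4 kb and not in that set, whereas the other members are. The median log2 fold change of the 9 regions was 1.28, against -0.003 over all regions and 0.22 over the wide TSS regions. Calls rest on edgeR's quasi-likelihood test with Benjamini-Hochberg adjustment over all 17993 regions, at an adjusted p under 0.01, written below as edgeR adjusted p. Levels are CPM, read counts scaled to library size with TMM factors of all 12 libraries, and fold changes come from the fit of the 6 libraries compared.

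Neurod1, which acts early in the commitment of neurons, had 36.0, 33.4 and 26.9 CPM in the 3 Rosa tChIP libraries and 90.9, 91.7 and 85.1 CPM in the 3 Camk2a tChIP libraries. The groups were far apart, with every Camk2a library above every Rosa library. The log2 fold change was 1.47 (SE 0.113, edgeR adjusted p = 1.32e-19), a 2.762-fold difference. In single ChIP it had 48.4, 49.4 and 51.7 CPM in the Rosa line and 51.4, 51.1 and 62.1 CPM in the Camk2a line, where 1 Camk2a library was the highest and the others overlapped the Rosa range. These single ChIP levels lay between those of Rosa and Camk2a tChIP.

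Neurod2, which is needed for the maturation and survival of excitatory neurons, had the highest count of the 3 Neurod genes. Its level was 73.0, 67.4 and 66.9 CPM in Rosa tChIP and 172.6, 173.9 and 189.0 CPM in Camk2a tChIP. The groups did not overlap, and the log2 fold change was 1.37 (SE 0.0789, edgeR adjusted p = 2.92e-26). In single ChIP the Rosa libraries had 133.1, 143.0 and 129.9 CPM and the Camk2a libraries 141.5, 136.7 and 133.8 CPM, which overlapped. Neurod6, a factor that remains expressed in mature pyramidal neurons, had 53.7, 51.9 and 43.3 CPM in Rosa tChIP and 122.0, 127.4 and 126.0 CPM in Camk2a tChIP, at a log2 fold change of 1.33 (SE 0.0926, edgeR adjusted p = 8.24e-22). Its single ChIP levels were 90.7, 90.0 and 83.1 CPM in the Rosa line and 104.1, 88.5 and 95.7 CPM in the Camk2a line. Here too the single ChIP groups overlapped while the tChIP groups did not. The 3 Neurod genes are on different chromosomes, and their fold changes in tChIP lay between 2.509 and 2.762.

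Regions near Neurod2 without a TSS of it did not all do the same. A region 3936 bp from the gene (chromosome 11, 98181478 to 98182793) had 8.693 ± 3.91 CPM in Rosa tChIP and 23.96 ± 2.25 CPM in Camk2a tChIP (SD, n = 3), at a log2 fold change of 1.48 (SE 0.222, edgeR adjusted p = 2.8e-08). A region 4219 bp away on the other side (98195181 to 98196374) rose by 1.18 (SE 0.2, edgeR adjusted p = 6.89e-07). One further out, 8589 bp from the gene (98199551 to 98201034), had a log2 fold change of -0.08 (SE 0.147, edgeR adjusted p = 0.694). The line difference in tChIP at the Neurod2 promoter was thus also called at its nearest neighbours and not at the farther one. Otherwise these neighbours were unlike the promoter. Their interaction of line and assay was not called (edgeR adjusted p = 0.011 and 0.0362). In tChIP against single ChIP in the Rosa line they had log2 fold changes of 0.56 and 0.83 (edgeR adjusted p = 0.0554 and 0.00156), where the promoter had -0.96.

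Emx1, the marker of the dorsal telencephalic lineage, had 97.6, 97.8 and 86.6 CPM in Rosa tChIP and 227.7, 211.8 and 246.1 CPM in Camk2a tChIP. Every Camk2a library was above every Rosa library, and the log2 fold change was 1.28 (SE 0.0712, edgeR adjusted p = 3.34e-27). In single ChIP the Rosa libraries had 148.2, 146.7 and 152.5 CPM and the Camk2a libraries 138.3, 143.2 and 144.3 CPM. The Camk2a libraries were here all below the Rosa libraries, by a log2 difference of 0.07 that was not called (log2 fold change -0.07, SE 0.0441, edgeR adjusted p = 0.35).

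Both deep-layer factors were higher in Camk2a tChIP. Fezf2 had 58.4, 55.5 and 59.0 CPM in Rosa tChIP and 107.9, 111.1 and 106.1 CPM in Camk2a tChIP, at a log2 fold change of 0.92 (SE 0.0911, edgeR adjusted p = 1.65e-14). Its libraries lay close together within each group, and the groups did not overlap. In single ChIP it had 72.4, 81.1 and 81.8 CPM in the Rosa line and 84.9, 80.6 and 80.2 CPM in the Camk2a line. Bcl11b had 73.0, 59.0 and 58.4 CPM in Rosa tChIP and 126.3, 129.9 and 131.1 CPM in Camk2a tChIP, at a log2 fold change of 1.02 (SE 0.0871, edgeR adjusted p = 2.33e-17). One Rosa library stood above the other two, but below every Camk2a library. In single ChIP Bcl11b had 105.0, 108.5 and 115.5 CPM in the Rosa line and 101.7, 104.7 and 99.4 CPM in the Camk2a line, so the Camk2a libraries were slightly the lower.

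Of the 7 regions called, Fezf2 and Bcl11b had the smallest fold changes, 1.888 and 2.021. The 95% interval of their log2 fold changes, 0.74 to 1.10 for Fezf2 and 0.84 to 1.19 for Bcl11b, met that of Emx1 (1.14 to 1.42) in the case of Bcl11b and not in that of Fezf2. These intervals are those of each region alone, and the difference between regions was not tested. Inside the body of Bcl11b, 2 regions without a TSS had log2 fold changes of 0.15 and -0.00, with edgeR adjusted p = 0.682 and 0.994. Bcl11b is also expressed in striatal neurons, and of 4 striatal markers (Drd1a, Drd2, Adora2a and Ppp1r1b) 1 was called higher and 1 lower in Camk2a tChIP. Their summed level was 116.3 to 147.6 CPM in Rosa tChIP and 142.9 to 162.1 CPM in Camk2a tChIP, and their part in the Bcl11b value was not tested.

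Of the upper-layer factors, Cux1 had the highest count of the 9 regions in all but the Camk2a tChIP group and was not called. It had 230.6, 220.1 and 211.3 CPM in Rosa tChIP and 198.2, 204.2 and 214.0 CPM in Camk2a tChIP. The groups overlapped, at a log2 fold change of -0.10 (95% interval -0.21 to 0.01, edgeR adjusted p = 0.149). Single ChIP gave 234.1, 228.3 and 220.2 CPM in the Rosa line and 210.2, 203.1 and 214.6 CPM in the Camk2a line, which did not overlap, at a log2 fold change of -0.12 (SE 0.038, edgeR adjusted p = 0.0271). The difference in tChIP would have been called lower with library totals in place of TMM (log2 fold change -0.17, edgeR adjusted p = 0.00932), where the median of all regions was -0.074.

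Cux2 had different values at its 2 promoters. The internal region had 19.8, 18.5 and 21.7 CPM in Rosa tChIP and 52.2, 54.1 and 50.5 CPM in Camk2a tChIP, at a log2 fold change of 1.39 (SE 0.143, edgeR adjusted p = 6.72e-14). It had the fewest counts of the 9, from 31 to 38 reads per Rosa tChIP library, yet its groups did not overlap and its log2 fold change lay within the range of the Neurod genes. The upstream region had 96.5, 101.4 and 98.4 CPM in Rosa tChIP and 109.2, 103.2 and 112.3 CPM in Camk2a tChIP. Every Camk2a library was above every Rosa library there as well, but by little, and the log2 fold change of 0.14 (95% interval -0.02 to 0.30, edgeR adjusted p = 0.16) was not called.

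In single ChIP, the internal Cux2 region had 28.5, 27.8 and 27.2 CPM in the Rosa line and 34.2, 36.3 and 30.7 CPM in the Camk2a line, without overlap, at a log2 fold change of 0.28 (SE 0.0959, edgeR adjusted p = 0.0588). The upstream region had 108.5, 106.8 and 104.1 CPM in the Rosa line and 104.6, 95.2 and 104.4 CPM in the Camk2a line, where 2 Camk2a libraries lay within the Rosa range. A further region without a TSS in the body of Cux2 (chromosome 5, 122375559 to 122376143) had 193 counts over all libraries and a log2 fold change in tChIP of 0.65 (SE 0.366, edgeR adjusted p = 0.155).

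**Figure D2:**
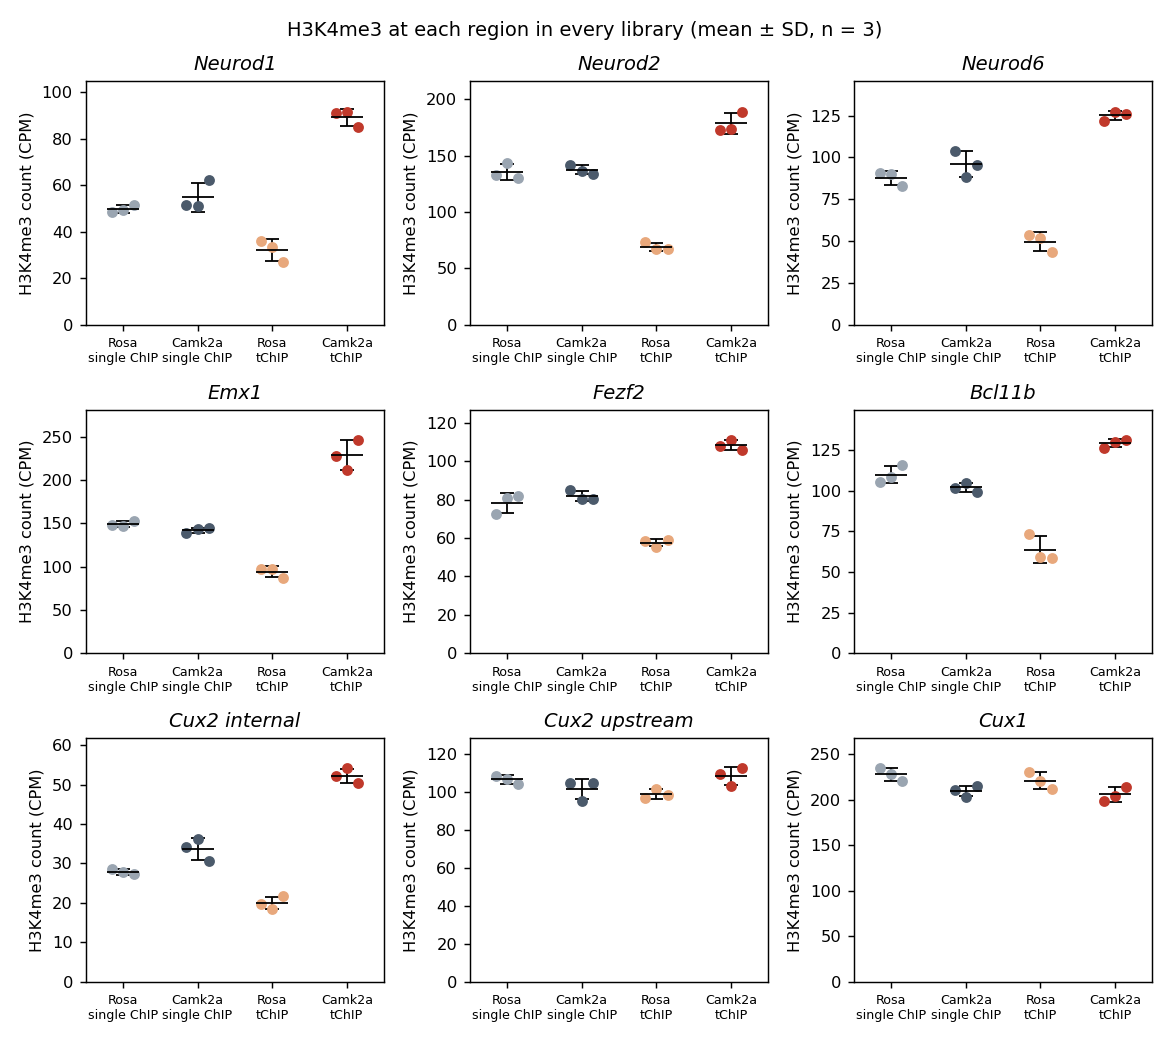
H3K4me3 count (CPM, linear axis from 0) at each of the 9 regions in every library. Each point is a library, and black marks are the mean ± SD of 3. In 7 panels the Rosa tChIP libraries are the lowest and the Camk2a tChIP libraries the highest, whereas for Cux1 and upstream Cux2 the 4 groups lie close together.

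Since both Cux2 promoters were counted in the same libraries, the internal count was also expressed as a percent of the upstream count, which needs no scaling between libraries. It was 20.5%, 18.2% and 22.0% in Rosa tChIP and 47.7%, 52.4% and 44.9% in Camk2a tChIP. The means were 20.23% ± 1.91 and 48.33% ± 3.79 (SD, n = 3), 2.39-fold apart. In single ChIP the percent was 26.3%, 26.0% and 26.1% in the Rosa line and 32.7%, 38.1% and 29.4% in the Camk2a line, a 1.27-fold difference. No pair of groups compared overlapped. In an exact two-sided permutation test each of the 4 comparisons had p = 0.1, which is the smallest value that 3 libraries against 3 allow, and Benjamini-Hochberg adjustment over 4 leaves it at 0.1.

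**Figure D3:**
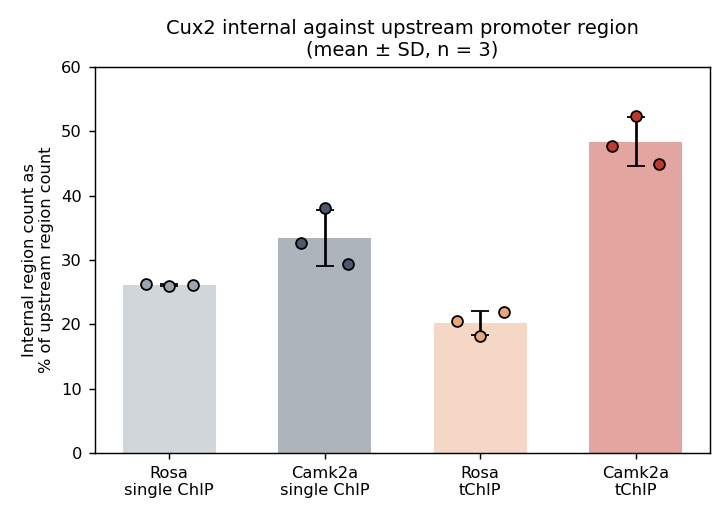
Count of the internal Cux2 region as a percent of the count of the upstream Cux2 region (linear axis from 0) in each library (points), with the mean (bars) and SD of 3 libraries. The Camk2a tChIP libraries sit between 44.9% and 52.4%, above all others, and the Rosa tChIP libraries between 18.2% and 22.0%, below all others.

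The line comparison in single ChIP measures the background of the comparison in tChIP, since both lines there contribute chromatin of all cells. Of the 9 regions 0 were called in edgeR's quasi-likelihood test, against 2.15% of all regions in either direction. At an unadjusted p under 0.05 there were 4 (Neurod6, Cux1, internal Cux2 and Bcl11b), against 21.99% of all regions, and the Wald test of DESeq2 called 0 and gave 2 at an unadjusted p under 0.05. Log2 fold changes lay between -0.12 and 0.28, with a median of 0.01. No 95% interval of the 9 reached beyond -0.20 or 0.46.

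The interaction of line and assay over all 12 libraries tests whether the line difference was larger in tChIP than in single ChIP. It was larger at the same 7 regions, against 13.7% of all regions and 50.73% of the TSS regions over 4 kb. At Cux1 and upstream Cux2 it was not called. On the log2 scale, the difference of differences was 1.35 for Neurod2 (SE 0.0931, edgeR adjusted p = 1.76e-33), 1.34 for Emx1 (SE 0.0838, edgeR adjusted p = 7.24e-39) and 1.32 for Neurod1 (SE 0.139, edgeR adjusted p = 3.18e-17). It was 1.2 for Neurod6, 1.11 for both Bcl11b and internal Cux2, and 0.85 for Fezf2, the largest edgeR adjusted p of these being 1.84e-08 for internal Cux2. For Cux1 it was 0.01 (95% interval -0.12 to 0.15) and for upstream Cux2 0.21 (95% interval 0.02 to 0.39, edgeR adjusted p = 0.0841). This term and the line comparison in tChIP share libraries and are not independent of each other.

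The tandem assay was then compared with single ChIP within each line. The authors also found loci that differed between the assays in the Rosa line. They propose that biases of the first purification, the tag or the second precipitation may cause this, and mainly compared tChIP between the lines instead. The part of such assay biases in the differences below was not tested. In the Rosa line, where nearly all cells carry the tag, 7 of the 9 regions were lower in tChIP, against 22.5% of all regions called lower and 68.61% of the wide TSS regions. A lower level was thus common among wide TSS regions in general. Of the regions called lower, Neurod1 (3553 bp) and internal Cux2 (2682 bp) are below 4 kb and outside that set. The median log2 fold change was -0.61 for the 9 regions and -0.32 over the wide TSS regions. Neurod2 fell most, by 0.96 on the log2 scale (SE 0.0753, edgeR adjusted p = 6.12e-35), followed by Neurod6 with 0.81 and Bcl11b with 0.76 in the same direction. Emx1, Neurod1 and Fezf2 had log2 fold changes of -0.65, -0.61 and -0.43, with edgeR adjusted p between 9.92e-20 and 5.8e-06. Internal Cux2 had -0.47 (SE 0.153, edgeR adjusted p = 0.00471), a call that was lost without either of 2 Rosa tChIP libraries (edgeR adjusted p = 0.0272 and 0.035) and under DESeq2 (adjusted p = 0.0218). Cux1 (-0.03) and upstream Cux2 (-0.10) were not called, with edgeR adjusted p = 0.607 and 0.224.

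In the Camk2a line the same 7 regions were higher in tChIP than in single ChIP, against 25.3% of all regions called higher and 34.58% of the wide TSS regions. Neurod1 and Emx1 had the largest log2 fold changes, 0.70 (SE 0.0796, edgeR adjusted p = 8.89e-15) and 0.69 (SE 0.0507, edgeR adjusted p = 3.84e-28), and internal Cux2 had 0.63. Fezf2 had 0.40, Neurod2 and Neurod6 both 0.38, and Bcl11b 0.34, which were smaller than the steps of Neurod2, Neurod6 and Bcl11b in the Rosa line. Cux1 (-0.03) and upstream Cux2 (0.10) were again not called, with edgeR adjusted p = 0.631 and 0.199. The comparisons in the 2 assays and in the 2 lines share libraries: the low Rosa tChIP values enter both the line difference in tChIP and the assay difference in the Rosa line. At the 7 regions the tChIP level was thus below single ChIP in the Rosa line and above it in the Camk2a line. The line difference in tChIP holds both steps and also the line difference in single ChIP. At these regions the latter was a log2 fold change of -0.10 (Bcl11b) to 0.28 (internal Cux2).

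**Figure D4:**
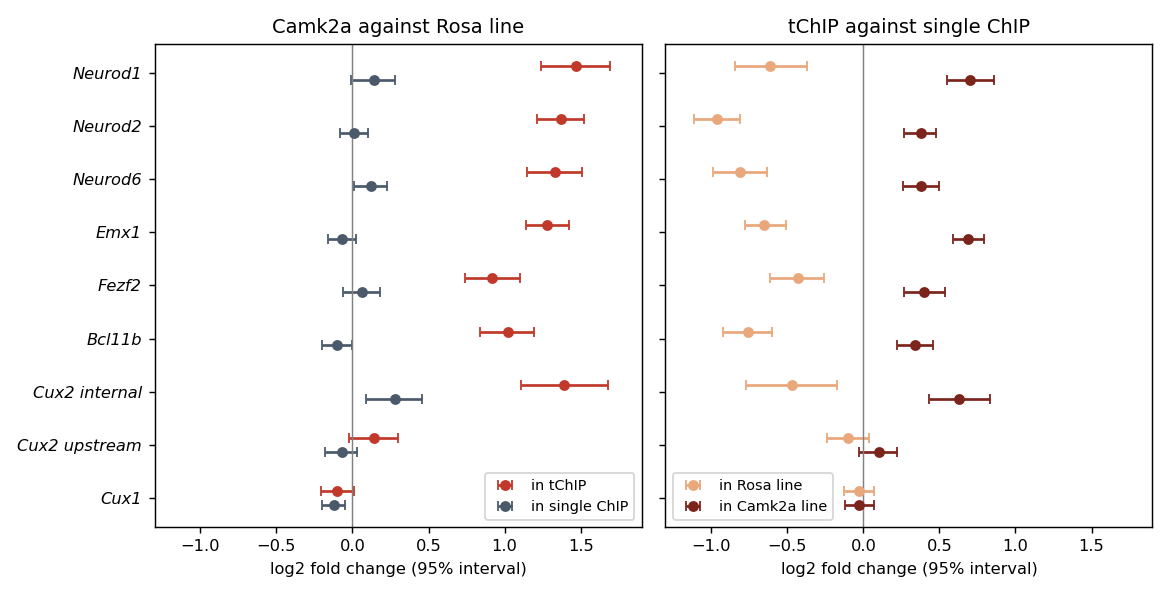
Log2 fold change with its 95% interval for each of the 9 regions. The left panel shows the Camk2a against the Rosa line within tChIP and within single ChIP, and the right panel shows tChIP against single ChIP within each line. In the left panel 7 regions lie between 0.92 and 1.47 in tChIP and between -0.10 and 0.28 in single ChIP, and in the right panel these lie below 0 in the Rosa line and above 0 in the Camk2a line.

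Levels can be compared between regions only per length, as CPM per kb of region. In Rosa single ChIP the order was Cux1 (44.63), Neurod2 (28.56), Emx1 (28.30), Bcl11b (23.87), upstream Cux2 (23.77), Neurod6 (14.03), Neurod1 (14.02), Fezf2 (12.27) and internal Cux2 (10.37). Neurod2 and Emx1, Bcl11b and upstream Cux2, and Neurod6 and Neurod1 overlapped in their libraries, whereas other neighbours did not. The median of all TSS regions was 29.31 CPM per kb, so Cux1 alone stood above it. In Camk2a single ChIP the order ran from Cux1 (41.05) to internal Cux2 (12.57), with overlaps between upstream Cux2 and Bcl11b, between Neurod1 and Neurod6, and between Fezf2 and internal Cux2.

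In Rosa tChIP, Cux1 (43.28 CPM per kb) and upstream Cux2 (22.06) stood at the top, ahead of Emx1 (17.84), Neurod2 (14.59), Bcl11b (13.82), Neurod1 (9.035), Fezf2 (9.014), Neurod6 (7.920) and internal Cux2 (7.453). Neurod2 overlapped with Bcl11b, Neurod1 with Fezf2, and Neurod6 with internal Cux2. In Camk2a tChIP the order was Emx1 (43.37), Cux1 (40.30), Neurod2 (37.66), Bcl11b (28.11), Neurod1 (25.11), upstream Cux2 (24.18), Neurod6 (19.96), internal Cux2 (19.48) and Fezf2 (16.95). Emx1 overlapped with Cux1, Cux1 with Neurod2, Neurod1 with upstream Cux2, and Neurod6 with internal Cux2. Upstream Cux2 thus moved from the second place of 9 to the sixth, while its own level stayed between 21.56 and 25.09 CPM per kb in all tChIP libraries. The median of TSS regions was 27.90 CPM per kb in Rosa tChIP and 29.16 in Camk2a tChIP.

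The regions whose levels over the 12 libraries were most like each member were found by Pearson's r of log2(CPM + 1), among protein-coding TSS regions on other stretches of the genome with at least 500 counts. The 12 libraries form 4 groups, so r mainly follows the group means and is given as a description. Closest to Neurod1 were Prdm8 (r = 0.994) and Kcnt1 (0.988), closest to Neurod2 was Csmd1 (0.998), and closest to Neurod6 were A830092H15Rik and 1700086L19Rik (0.989 each). Emx1 was most like Rims4 (0.994) and Shisa9 (0.992), Fezf2 most like Nefl (0.993) and Kif21b (0.990), and Bcl11b most like Iqsec3 and Dnajc6 (0.989 each). For Cux1 the closest were Dnaja3 (0.885) and Rxra (0.882), and for upstream Cux2 they were Ubac2 (0.865) and Twf2 (0.864).

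Among the 9 regions themselves, the 7 that were called had r between 0.858 (internal Cux2 and Bcl11b) and 0.983 (Neurod2 and Neurod6). Cux1 had r between -0.657 and -0.297 with these 7 and 0.048 with upstream Cux2. The 2 Cux2 promoters had r = 0.52.

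Other factors of the excitatory lineage and of layers were examined as a list of 50 genes, of which 35 had 42 TSS regions. In Camk2a against Rosa tChIP 15 of these regions were higher, 9 were lower and 18 were not called, against 17.0% higher and 14.6% lower over all regions. Their median log2 fold change was 0.12, against -0.003 over all. In single ChIP 1 was higher (Sox4) and 1 lower (Tshz3). Their directions were more mixed than those of the 9 regions above. Members and lists were chosen with earlier results of these data known, and the contrast was not tested. The 4 with the largest rise were Sox5, Lmo3, Ldb2 and Nfix. At one of its 3 regions (chromosome 6, 144150225 to 144153237), Sox5, a factor that controls the timing of deep-layer neurons, had 26.92 ± 7.14 CPM in Rosa tChIP and 56.26 ± 4.42 CPM in Camk2a tChIP (SD, n = 3), at a log2 fold change of 1.10 (SE 0.138, edgeR adjusted p = 1.21e-10). Another Sox5 region rose by 0.70 and the last had 0.12 and was not called. Lmo3, a LIM-only cofactor, rose by 1.06 (SE 0.0923, edgeR adjusted p = 4.06e-17), Ldb2 by 0.89 (SE 0.108, edgeR adjusted p = 3.69e-11) and one of 2 Nfix regions by 0.88 (SE 0.0785, edgeR adjusted p = 1.42e-16).

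The 4 regions of this list that fell most were at Dmrta2, Pax6 and Eomes. Dmrta2 had 25.86 ± 4.82 CPM in Rosa tChIP and 7.830 ± 0.87 CPM in Camk2a tChIP (SD, n = 3), at a log2 fold change of -1.72 (SE 0.209, edgeR adjusted p = 3.46e-11). Pax6, the homeodomain factor of radial glia that adult astrocytes also express, fell at both of its regions, by 1.60 and 0.98 on the log2 scale (edgeR adjusted p = 1.6e-08 and 2.25e-10). Eomes (Tbr2), the factor of intermediate progenitors, fell from 15.24 ± 0.802 to 7.049 ± 0.428 CPM, at a log2 fold change of -1.10 (SE 0.243, edgeR adjusted p = 0.000102). Counts were low, with 240 at the Eomes region over all libraries and 420 at the Pax6 region that fell by 1.60. Eomes had 2.837 CPM in Rosa and 3.347 CPM in Camk2a single ChIP, below its level in tChIP of either line. In single ChIP these 4 regions had log2 fold changes of 0.18, 0.29, -0.07 and 0.22, none of them called.

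For comparison, of 20 TSS regions of 18 interneuron lineage factors 3 were higher, 11 were lower and 6 were not called in Camk2a against Rosa tChIP, where 17.0% of all regions were higher and 14.6% lower. Their median log2 fold change was -0.67. Those that rose included one each of 2 regions of Satb1 and Zeb2, named after their values were seen. Of 18 regions of 16 glial and vascular factors 1 was higher (one of 2 regions of Hes1, a Notch target), 13 were lower and 4 were not called, with a median of -0.93, beside the same shares over all regions. In single ChIP 0 of the interneuron regions and 2 of the glial and vascular regions were called, both lower (Olig1 and Olig2). The medians of the other excitatory, interneuron and glial lists in tChIP thus lay in the order 0.12, -0.67 and -0.93, against 1.28 for the 9 regions, whose members were chosen with earlier results of these data known.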

How the data were processed

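H3K4me3 libraries were made from adult mouse cerebral cortex. The authors trimmed single-end reads, removed repeats with Bowtie2 2.1.0, mapped to mm9 with Bowtie 1.0.0, removed duplicates with SAMtools (0.1.19 per the processing notes), took peaks from MACS and obtained the counts with bedtools 2.17.0. The deposited values are whole-number counts, without normalization, on 1 region list whose merging is not given in the sources used here. Only column 4 counts were used, and 12 input and FLAG-only libraries were not analysed here.

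Groups came from the labels. edgeR 4.0.16 under R 4.3.3 was run on the whole table with TMM normalization, the quasi-likelihood F test, no count filter and Benjamini-Hochberg adjustment over 17993 regions, at 0.01. Two-group comparisons used 6 libraries and the interaction 12. SEs were obtained by dividing a log2 fold change by the root of its F, and 95% intervals are 1.96 SE. The fits were tested on simulated counts. Alternatives were DESeq2 1.42.0, its size factors, library totals, 2 count filters, a threshold of 0.05, a single fit, a replicate block and leaving out each library. TSSs were taken from GENCODE M1 and sequence from mm9. The members, lists and tests were chosen with earlier results of these data known. Named were all member regions, regions within 10 kb, the 2 most alike TSS regions per member, and of the list of other excitatory factors the 4 called regions with the largest change in each direction whose groups did not overlap. A few genes these rules would name are not reported here.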

Additional observations from a re-analysis of the deposited data

Results flagged for a closer look

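The line effect in tChIP-Seq differed from that in single ChIP-Seq, by the interaction term of edgeR's quasi-likelihood test over 12 libraries, at 7 of the 9 regions and at 8 regions named from the list of other factors. The differences of log2 fold changes were 1.32 for Neurod1, 1.35 for Neurod2, 1.2 for Neurod6, 1.34 for Emx1, 1.11 for internal Cux2, 0.85 for Fezf2 and 1.11 for Bcl11b. Among the other factors they were 1.01 for Sox5, 0.91 for Lmo3, 0.79 for Ldb2 and 0.89 for Nfix. Among those that fell they were -1.92 for Dmrta2, -1.90 and -0.91 for the regions of Pax6, and -1.34 for Eomes. The 8 regions of other factors had been named for their large called changes between the lines in tChIP. The interaction uses the same tChIP libraries, so its calls at these 8 are not separate evidence. Of all 42 regions of that list, the interaction was higher at 16, lower at 9 and not called at 17. Over all regions of the table, 2466 were called higher and 2375 lower. With 3 libraries per group, no library was tested for standing apart from its group.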

How the results depend on the processing

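The 7 member calls in the line comparison in tChIP, in the interaction and in tChIP against single ChIP in the Camk2a line held under every alternative run, leave-one-out included. Allowing a TSS within 1000 bp gave 10 member regions, and protein-coding transcripts only gave 9. With library totals 1 member (Cux1) was called lower in tChIP, and at a threshold of 0.05 1 member (Cux1) was called lower in single ChIP. In the Rosa line, tChIP against single ChIP, the internal Cux2 call was lost with library totals (adjusted p = 0.0317), DESeq2 (0.0218), a minimum of 10 counts (0.0102), without the 40% lowest regions (0.0883) and without the Rosa tChIP library numbered 1 (0.0272) or 2 (0.035). Values near 0 changed sign: Cux1 in the interaction was -0.08 with library totals, -0.06 without the 40% lowest regions and -0.02 to 0.05 leaving out libraries, against 0.01. Cux1 in the Rosa assay comparison was 0.07 with library totals, 0 with a minimum of 10 counts and 0.12 without the 40% lowest regions, where it was 0.05 in the Camk2a line and upstream Cux2 was 0.05 in the Rosa line. Neurod2 in single ChIP was -0.01 to 0.06 leaving out libraries.

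Over the whole table, the line comparison in single ChIP called 386 regions, and 1191 at 0.05, 251 with library totals, 34 with DESeq2, 106 without the 40% lowest regions and 118 to 296 leaving out 1 library (118 without Camk2a single ChIP library 2, 164 without Rosa single ChIP library 3, and 190 to 226 without 3 others). Without the 40% lowest regions 3274 were called in the tChIP line comparison, 2840 in the interaction, 3636 in the Rosa and 4511 in the Camk2a assay comparison, where DESeq2 called 5563; fewer regions were tested then. Library totals moved the share of called regions that were higher from 53.9% to 43.7% in the tChIP line comparison, from 43.3% to 77.3% in single ChIP, from 50.9% to 38.9% in the interaction and from 52.3% to 67.7% in the Rosa assay comparison. Of the other factors in single ChIP, 1 was higher and 1 lower; at 0.05 there were 2 and 2, with DESeq2 0 and 0, and the lower count was 0 with DESeq2 size factors, library totals, a minimum of 10 counts, without the 40% lowest regions and with all 12 libraries in a single fit. Leaving out libraries gave 0 to 1 for both. The cause of these changes was not tested.

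Replicate numbers are shared between groups, and the labels do not say whether same-numbered libraries of a line come from the same lysate. Deviations of same-numbered single ChIP and tChIP libraries within a line had r from 0.0019 to 0.0547 over 10795 regions. Differently numbered ones had r from -0.0342 to 0.0145. These r were small but do not exclude a pairing, which the main fits did not use. With a replicate block, 7 members were called higher in tChIP between the lines and 5468 regions were called over the whole table. No member call changed in any comparison. In a line comparison the block joins libraries of different mice, so it does not bear on a shared lysate there. In the assay comparisons and the interaction it joins same-numbered libraries of a line. Depth limits internal Cux2 and the Rosa tChIP group most, where 31 to 38 reads lay behind a value.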

Other observations

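A separate promoter region of another gene lay within 10 kb of Cux1 and of Cux2, and neither was called between the lines in tChIP. The Sh2b2 promoter region, 2443 bp beyond the end of Cux1 (chromosome 5, 136719283 to 136721562), had 87.07 ± 16.2 CPM in Rosa tChIP and 91.47 ± 12.6 CPM in Camk2a tChIP (SD, n = 3), at a log2 fold change of 0.10 (SE 0.0953, edgeR adjusted p = 0.454). The Fam109a promoter region, 7900 bp beyond the end of Cux2 (chromosome 5, 122297801 to 122300496), had 78.55 ± 4.01 and 72.19 ± 11.1 CPM, at a log2 fold change of -0.11 (SE 0.0976, edgeR adjusted p = 0.41).

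Some regions inside or near the members differed between the assays in both lines without a called difference between the lines. A region within Bcl11b (chromosome 12, 109218129 to 109219169) had 6.000 ± 0.719 CPM in Rosa single ChIP and 14.44 ± 2.57 CPM in Rosa tChIP, and 7.447 ± 2.62 and 14.15 ± 2.25 CPM in the Camk2a line (SD, n = 3 each). The log2 fold changes of tChIP against single ChIP were 1.25 and 0.93 (edgeR adjusted p = 1.82e-07 and 4.61e-05), the opposite direction to that of the Bcl11b promoter in the Rosa line. The region 8589 bp from Neurod2 rose likewise, by 0.48 and 0.36 (edgeR adjusted p = 0.000887 and 0.00878).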
